A study of Homo sapiens with 18 samples.

Results

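TRAIL (TNFSF10), the caspases CASP1, CASP4 and CASP8, the kinase RIPK1, the necroptosis effector MLKL and the pore proteins GSDMD and GSDME were followed across 6 conditions, 3 in each of 2 derivatives labelled as the breast cancer cell line HCC1937, treated with the PARP inhibitor (PARPi) olaparib. The genes were chosen by name as the ligand, the proteases, the kinases and the pore formers of TRAIL-driven apoptosis, necroptosis and pyroptosis. Of the 9 genes sought, 8 had a row among the 35044 genes of the count table, and all 8 passed the filter on low counts. RIPK3 was not analysed here. The data are 18 RNA-seq libraries, 3 for each condition. HCC1937 is a human breast cancer line with mutated BRCA1, and HCC1937-EV carries an empty vector, while in HCC1937-OE-BRCA1 wild-type BRCA1 was overexpressed. Each line was sequenced untreated (0 h) and after 12 h and 24 h with olaparib. The labels write the genotype of HCC1937-EV as WT, which is taken here as no BRCA1 overexpression, and they name olaparib for every library, so untreated libraries were recognised by the 0 h in their titles. Each line is a single derivative, and no label says that the replicates were separate cultures, so p-values measure the spread between these libraries, which may be technical.

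These 8 genes stand at the points where a cell commits to one form of death. TRAIL binds death receptors at the cell surface, which recruit FADD and CASP8 to start apoptosis. Where CASP8 is not active, RIPK1 and its partner kinase can pass the signal to MLKL, which ruptures the membrane in necroptosis. In pyroptosis, CASP1 in inflammasomes and CASP4 in response to bacterial lipopolysaccharide cut GSDMD, whose fragment forms membrane pores, and GSDME is a related pore protein of the same family. Several of these genes are known to be induced by interferon. All values below are transcript levels, and none of them measures cleavage, protein or cell death.

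Library totals lay between 15081973 and 17571922 counts. BRCA1 checks the labels. Its level before treatment, in counts per 1000000 (CPM) with normalized library sizes, was 126, 111 and 117 in HCC1937-EV and 166, 122 and 127 in HCC1937-OE-BRCA1. These libraries overlapped, and the log2 fold change of 0.24 (SE 0.11) did not pass edgeR's quasi-likelihood test (Benjamini-Hochberg adjusted p = 0.0654). At 12 h the difference was 0.16 (SE 0.11, adjusted p = 0.197 by the same test). At 24 h BRCA1 was higher in HCC1937-OE-BRCA1 by 0.77 on the log2 scale (SE 0.11, adjusted p = 3.17e-06 by the same test), the only one of the 3 times at which it was called. The lines differed in far more than BRCA1. Of 7 epithelial and basal breast markers, 7 reached 1 CPM in all 9 libraries of HCC1937-OE-BRCA1 and 4 did so in HCC1937-EV, where EPCAM, KRT5 and KRT14 were at most 0.0617, 0.124 and 0.124 CPM. KRT17, among those 4, was at 1.86 to 5.97 CPM in HCC1937-EV and 1229 to 2312.5 CPM in HCC1937-OE-BRCA1. The summed level of the 7 markers was 2613 to 3309 CPM in HCC1937-EV and 6279 to 10114 CPM in HCC1937-OE-BRCA1. The summed level of 3 fibroblast markers was 96.7 to 153 CPM in HCC1937-EV, most of it COL1A1, and 5.91 to 11.8 CPM in HCC1937-OE-BRCA1. PDGFRB was at 6.34 to 11.3 CPM in HCC1937-EV and at most 0.189 CPM in HCC1937-OE-BRCA1, while DCN stayed at or below 0.126 CPM in both. Endothelial markers summed to 0.925 to 2.75 CPM and 16.9 to 26.1 CPM, and 4 leukocyte markers to at most 2.28 and 2.40 CPM. The effect of BRCA1 and these other differences between the lines cannot be told apart. Whether both lines stem from the same parental cells was not tested, and every difference between the lines below is a difference between these 2 sets of libraries.

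Promoter windows of RefSeq (GRCh38.p14, 250 bases before to 50 after each start) were found for 6 of the 8 genes, in 10 windows. They were searched on both strands for GAAANNGAAA, the core of the element through which interferon-induced factors act. The motif was chosen with the genes' values known, and several of the 8 genes are known to be induced by interferon. The letters occurred in 4 of these 10 windows, in 3 of the 6 genes (TNFSF10, CASP8 and RIPK1), and in 3.57% of all 35116 windows of that length. RIPK1 accounts for 2 of the 4, overlapping windows that hold the same match, and a gene with several windows has more chances of one. The stretches that hold them are printed on the strand of the gene, 5′ to 3′, with the match in capitals. For TNFSF10 the stretch is chr3:172523563-172523662 (minus strand) and the match lies 187 to 178 bases before the start, for CASP8 it is chr2:201233370-201233469 (plus strand) and the match begins 3 bases before the start and crosses it, and for RIPK1 it is chr6:3068266-3068365 (plus strand) with the match 67 to 58 bases before one start and 183 to 174 before another.
TNFSF10: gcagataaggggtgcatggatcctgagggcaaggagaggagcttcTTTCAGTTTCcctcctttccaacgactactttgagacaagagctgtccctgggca
CASP8: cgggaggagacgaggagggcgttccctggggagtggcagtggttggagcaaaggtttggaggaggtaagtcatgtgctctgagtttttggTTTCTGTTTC
RIPK1: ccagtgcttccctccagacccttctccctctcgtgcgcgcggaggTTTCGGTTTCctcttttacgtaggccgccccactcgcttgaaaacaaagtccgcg
A second pattern, TTCNNNGAA, which is the core of the site bound by STAT dimers, was present in a window of 1 of the 6 genes, CASP8, 200 to 192 bases before the start, and in 7.66% of all windows. A match in these windows describes the letters and does not show that a factor binds there.

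TNFSF10 encodes the ligand TRAIL (ENSG00000121858.11, GRCh38 chr3:172505508-172523507, minus strand) and showed the clearest response to olaparib among the 8 genes. In HCC1937-OE-BRCA1 its level was 50.6, 43.3 and 36.1 CPM untreated, 98.2, 105.0 and 104 CPM at 12 h and 135, 145 and 136 CPM at 24 h. The 3 conditions did not overlap, and each later time lay wholly above the one before. The log2 fold change against untreated was 1.24 (SE 0.13, adjusted p = 2.91e-06) at 12 h and 1.68 (SE 0.13, adjusted p = 2.89e-08) at 24 h by edgeR's quasi-likelihood test (Benjamini-Hochberg adjusted), which is a 2.36-fold and a 3.20-fold level. This rise was called in every setting in which the gene was tested.

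In HCC1937-EV the same gene was near the limit of detection. The 9 libraries held between 0.295 and 0.825 CPM, with 18, 20 and 28 counts summed over the 3 libraries at 0 h, 12 h and 24 h. All 9 lay below the lowest library of the other line, and the 3 times overlapped with each other. In RNA of whole cultures, fewer cells that express a gene and less RNA per cell cannot be told apart. The ratio of HCC1937-OE-BRCA1 to HCC1937-EV by summed counts was 117 at 0 h (95% exact interval 74.1 to 198), 238 at 12 h (154 to 390) and 264 at 24 h (182 to 397), where the intervals cover counting error alone. The difference between the responses of the lines was 1.03 at 12 h (SE 0.45, adjusted p = 0.296) and 1.11 at 24 h (SE 0.43, adjusted p = 0.0730) on the log2 scale by edgeR's quasi-likelihood test, so a larger rise in HCC1937-OE-BRCA1 was not shown at this depth. The 24 h difference passed the threshold without HCC1937-EV 24 h replicate 2 (1.52, adjusted p = 0.0348 by edgeR) and without untreated HCC1937-OE-BRCA1 replicate 1 (1.24, adjusted p = 0.0296 by edgeR).

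**Figure D1:**
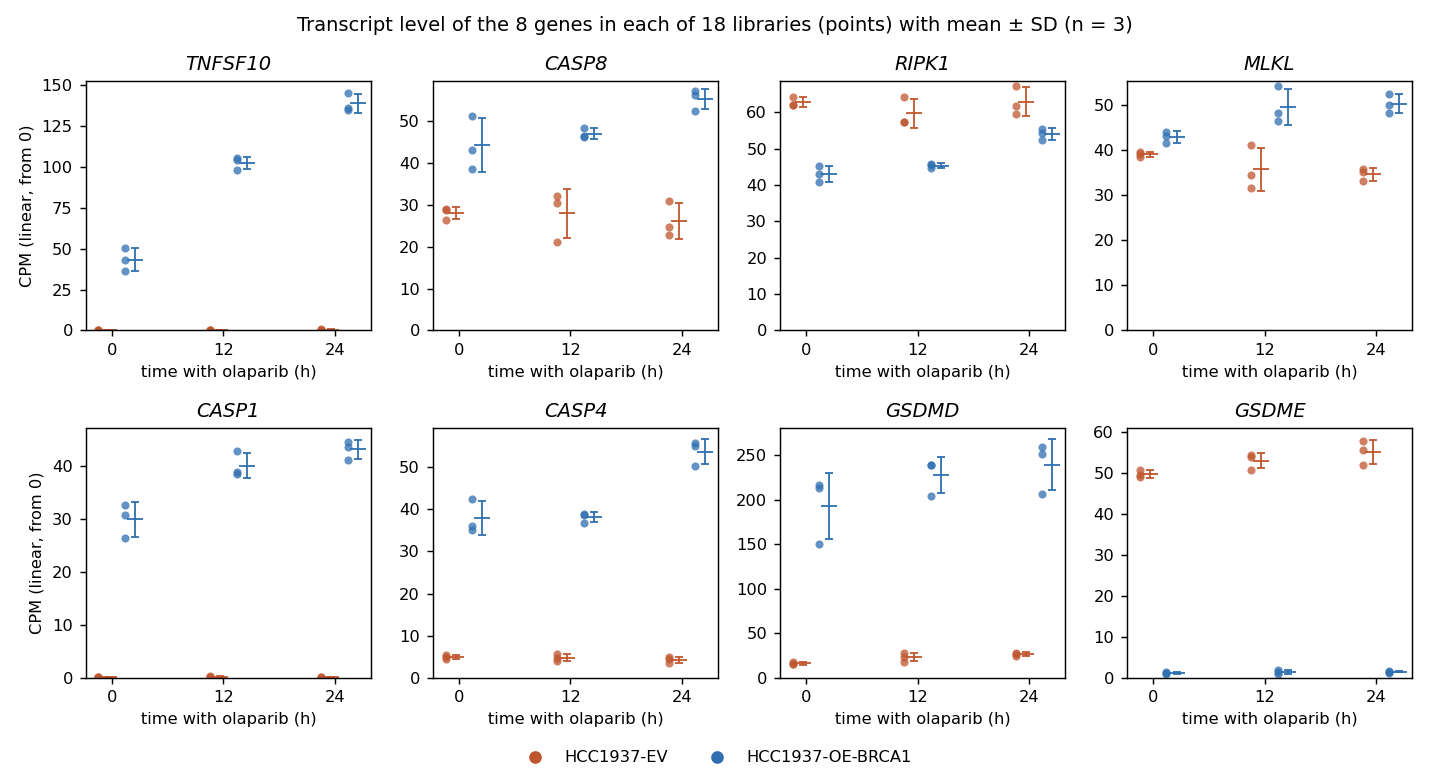
Level of each of the 8 genes in CPM (linear axes from 0) against time with olaparib in hours, with 1 point per library for HCC1937-EV (orange) and HCC1937-OE-BRCA1 (blue), and the mean ± SD of 3 libraries beside the points. TNFSF10 climbed from 43.3 to 139 CPM on average in HCC1937-OE-BRCA1, GSDME was high only in HCC1937-EV, and RIPK1 and MLKL were the closest between the lines.

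CASP8, the apical caspase of the death receptor pathway (ENSG00000064012.22, chr2:201233443-201287711, plus strand), was present in both lines. Its level was 26.5, 29.0 and 28.9 CPM in untreated HCC1937-EV and 51.2, 43.2 and 38.5 CPM in untreated HCC1937-OE-BRCA1. All libraries of HCC1937-OE-BRCA1 lay above all libraries of HCC1937-EV. The log2 difference between the lines was 0.65 (SE 0.14, adjusted p = 0.000359) untreated and 1.08 (SE 0.14, adjusted p = 8.61e-07) at 24 h by edgeR's quasi-likelihood test (Benjamini-Hochberg adjusted). At 24 h the 3 libraries of HCC1937-OE-BRCA1 held 52.5, 56.2 and 57.2 CPM, above the 3 untreated ones, but the response of 0.32 (SE 0.14) was not called (adjusted p = 0.168 by edgeR). Without untreated replicate 1, the highest untreated library, it was 0.44 and called (adjusted p = 0.0425 by edgeR). In HCC1937-EV the 24 h libraries held 31.1, 22.8 and 24.7 CPM, which overlapped with the untreated ones.

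RIPK1, the kinase that serves both survival signalling and necroptosis (ENSG00000137275.16, chr6:3063991-3115187, plus strand), ran the other way between the lines. Untreated libraries held 62.2, 64.3 and 62.0 CPM in HCC1937-EV and 45.2, 40.9 and 43.0 CPM in HCC1937-OE-BRCA1. The lines did not overlap, and the level in HCC1937-OE-BRCA1 was lower by a log2 difference of -0.55 (SE 0.09, adjusted p = 1.13e-05 by edgeR's quasi-likelihood test (Benjamini-Hochberg adjusted)). At 24 h its level in HCC1937-OE-BRCA1 was 52.3, 54.5 and 55.4 CPM, wholly above the untreated libraries, a rise of 0.33 (SE 0.09, adjusted p = 0.0240 by edgeR). In HCC1937-EV the 24 h libraries held 61.7, 59.6 and 67.3 CPM, on both sides of the untreated ones. With that, the difference between the lines at 24 h was -0.22 (SE 0.09, adjusted p = 0.0300 by edgeR), and this call was lost without HCC1937-EV 24 h replicate 3 (-0.16) or without any of the 3 HCC1937-OE-BRCA1 libraries of that time (-0.23 to -0.19), with DESeq2's size factors (-0.18), with no filter on low counts (-0.27) and with at least 10 counts in every library (-0.16). The gene shares 238 exonic bases with the antisense gene AL031963.3, and the strandedness of the counting is not given in the sources used here.

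MLKL, the pseudokinase that carries out necroptosis (ENSG00000168404.13, chr16:74671855-74700960, minus strand), differed least between the untreated lines. Its level was 39.6, 38.4 and 39.3 CPM in HCC1937-EV and 43.2, 44.1 and 41.6 CPM in HCC1937-OE-BRCA1. The libraries did not overlap, yet the log2 difference of 0.14 (SE 0.10) was not called (adjusted p = 0.237 by edgeR's quasi-likelihood test (Benjamini-Hochberg adjusted)). With an offset for GC content and length it was 0.20 and called (adjusted p = 0.0363 by edgeR). At 24 h the levels were 35.8, 35.3 and 33.1 CPM in HCC1937-EV and 48.4, 52.6 and 50.1 CPM in HCC1937-OE-BRCA1, further apart in both directions. The difference between the lines was then 0.54 (SE 0.10, adjusted p = 8.63e-05 by edgeR), while neither line's own response was called, at -0.17 (adjusted p = 0.274 by edgeR) and 0.23 (adjusted p = 0.177 by edgeR). The difference of these responses was 0.40 (SE 0.15, adjusted p = 0.0579 by edgeR). It was called in 3 of 8 other settings: DESeq2's Wald test, at least 10 counts in every library, and the compared conditions alone. Of 18 fits with 1 library left out, 3 called it, those without an HCC1937-EV 12 h library.

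CASP1, the inflammasome caspase that matures interleukin-1β and interleukin-18 (ENSG00000137752.24, chr11:105025443-105035250, minus strand), was almost absent from HCC1937-EV. The 9 libraries of that line held 0 to 4 counts each, or 0 to 0.256 CPM. In HCC1937-OE-BRCA1 the level was 30.9, 32.7 and 26.3 CPM untreated, 39.0, 42.9 and 38.5 CPM at 12 h and 41.2, 44.6 and 43.7 CPM at 24 h. Every library of HCC1937-OE-BRCA1 was far above every library of HCC1937-EV, and both treated times lay wholly above the untreated libraries. The ratio of the lines by summed counts was 243 untreated (95% exact interval 112 to 664) and 575 at 24 h (224 to 2111), with 6 and 4 counts in HCC1937-EV. The fitted log2 difference at 24 h was 8.96, and it was 10.17 without HCC1937-EV 24 h replicate 1 and 8.42 without its replicate 2. For CASP1 at 12 h it was 8.19, and 9.11 without HCC1937-EV 12 h replicate 1. Within HCC1937-OE-BRCA1 the log2 fold change was 0.42 (SE 0.15, adjusted p = 0.180) at 12 h and 0.53 (SE 0.15, adjusted p = 0.0288) at 24 h by edgeR's quasi-likelihood test (Benjamini-Hochberg adjusted).

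CASP4, the caspase of the noncanonical inflammasome (ENSG00000196954.14, chr11:104942866-104969436, minus strand), lies close to CASP1 on chromosome 11 and was also the higher one in HCC1937-OE-BRCA1. Its level was 4.53, 4.82 and 5.30 CPM in untreated HCC1937-EV and 42.5, 35.1 and 36.0 CPM in untreated HCC1937-OE-BRCA1, a log2 difference of 2.95 (SE 0.15, adjusted p = 1.25e-13 by edgeR's quasi-likelihood test (Benjamini-Hochberg adjusted)). No library of one line came near the other. At 12 h the level in HCC1937-OE-BRCA1 was 38.7, 36.8 and 38.9 CPM and at 24 h it was 50.3, 55.7 and 55.1 CPM. The 12 h libraries overlapped with the untreated ones, and the 24 h libraries lay above all others, with a log2 fold change of 0.50 (SE 0.13, adjusted p = 0.0163 by edgeR). HCC1937-EV held 4.96, 3.48 and 4.37 CPM at 24 h, a log2 fold change of -0.19 (SE 0.16, adjusted p = 0.442 by edgeR). CASP4 was the gene among the 8 whose 24 h responses differed between the lines at the threshold, by 0.70 (SE 0.20, adjusted p = 0.0215 by edgeR). CASP1 and CASP4 have close relatives beside them, and of these CARD16 reached 2.54 to 4.96 CPM in HCC1937-OE-BRCA1 with no count in HCC1937-EV and CASP5 at most 0.184 CPM in any library. How reads common to such copies were counted is not given in the sources used here.

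GSDMD, the pore protein cut by CASP1 and CASP4 (ENSG00000104518.11, chr8:143553207-143563062, plus strand), stood far higher in HCC1937-OE-BRCA1 than in HCC1937-EV. Its level was 18.1, 15.5 and 14.9 CPM in untreated HCC1937-EV and 151, 213 and 217 CPM in untreated HCC1937-OE-BRCA1, a log2 difference of 3.58 (SE 0.16, adjusted p = 2.82e-14 by edgeR's quasi-likelihood test (Benjamini-Hochberg adjusted)). In HCC1937-EV it went to 17.9, 23.1 and 27.1 CPM at 12 h and to 24.7, 28.0 and 26.9 CPM at 24 h. The 12 h libraries spread from the untreated range to the 24 h range, and the 24 h libraries lay above all untreated ones, with a log2 fold change of 0.71 (SE 0.16, adjusted p = 0.00800 by edgeR). GSDMD was the only one of the 8 genes called in HCC1937-EV at either time, and it kept that call at 24 h in all 26 other settings. In HCC1937-OE-BRCA1 the level was 251, 260 and 207 CPM at 24 h, which overlapped with the untreated libraries, and the log2 fold change of 0.31 (SE 0.14) was not called (adjusted p = 0.187 by edgeR).

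GC content was taken from the longest annotated transcript of each gene. That of GSDMD holds 64.8% G and C, the highest share of the 8 genes, and the libraries differed in how their counts followed GC content. Across genes, the Spearman correlation of a library's deviation from its line's mean with GC content was -0.575 to -0.224 in untreated HCC1937-EV and 0.275 to 0.605 at 24 h. The values for HCC1937-OE-BRCA1 were -0.575, 0.291 and 0.538 in the 3 untreated libraries and -0.435 to -0.281 at 24 h. With an offset for GC content and length, the response of GSDMD at 24 h was 0.32 (adjusted p = 0.0266 by edgeR) in HCC1937-EV and 0.53 (adjusted p = 4.86e-05 by edgeR) in HCC1937-OE-BRCA1, so that both lines passed the threshold. CASP4, with the lowest GC content of the 8 genes at 38.3%, had a difference of 24 h responses of 0.33 with that offset, which was no longer called (adjusted p = 0.161 by edgeR).

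GSDME, the second gasdermin of the set (ENSG00000105928.16, chr7:24698351-24758113, minus strand), was the reverse of GSDMD between the lines. Its level was 49.3, 49.0 and 50.8 CPM in untreated HCC1937-EV and 1.17, 0.801 and 1.39 CPM in untreated HCC1937-OE-BRCA1. At 24 h the libraries held 51.9, 57.7 and 55.6 CPM and 1.47, 1.23 and 1.59 CPM. Each line kept to its own range at all 3 times. The ratio of HCC1937-EV to HCC1937-OE-BRCA1 by summed counts was 44.3 untreated (95% exact interval 33.8 to 59.1) and 36.5 at 24 h (28.8 to 47.0). The log2 response at 24 h was 0.15 (SE 0.12, adjusted p = 0.436) in HCC1937-EV and 0.36 (SE 0.23, adjusted p = 0.420) in HCC1937-OE-BRCA1 by edgeR's quasi-likelihood test (Benjamini-Hochberg adjusted).

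Of the 8 genes, 7 differed between the untreated lines at an adjusted p under 0.05, 5 of them higher and 2 lower in HCC1937-OE-BRCA1, beside 72.7% of all 18335 genes tested (39.4% higher and 33.3% lower). At 12 h and at 24 h all 8 differed, 6 higher and 2 lower, beside 72.9% of all genes at 12 h (38.8% higher, 34.1% lower) and 73.9% at 24 h (39.9% higher, 34.0% lower). These shares are near the background, so the number of genes that differ between the lines is no result about the 8. Their sizes set 2 groups apart. TNFSF10, CASP1, CASP4, GSDMD and GSDME differed by 2.95 or more on the log2 scale in either direction, and CASP8, RIPK1 and MLKL by 1.08 or less at every time. The median signed difference over the 8 genes was 1.80 untreated and 2.13 at 24 h, against 0.11 and 0.12 over all genes tested. Both medians of the 8 fall in the gap between the 2 groups, where no gene lies. The genes were chosen with earlier results of these data known, so these medians are no result about the 8 either.

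**Figure D2:**
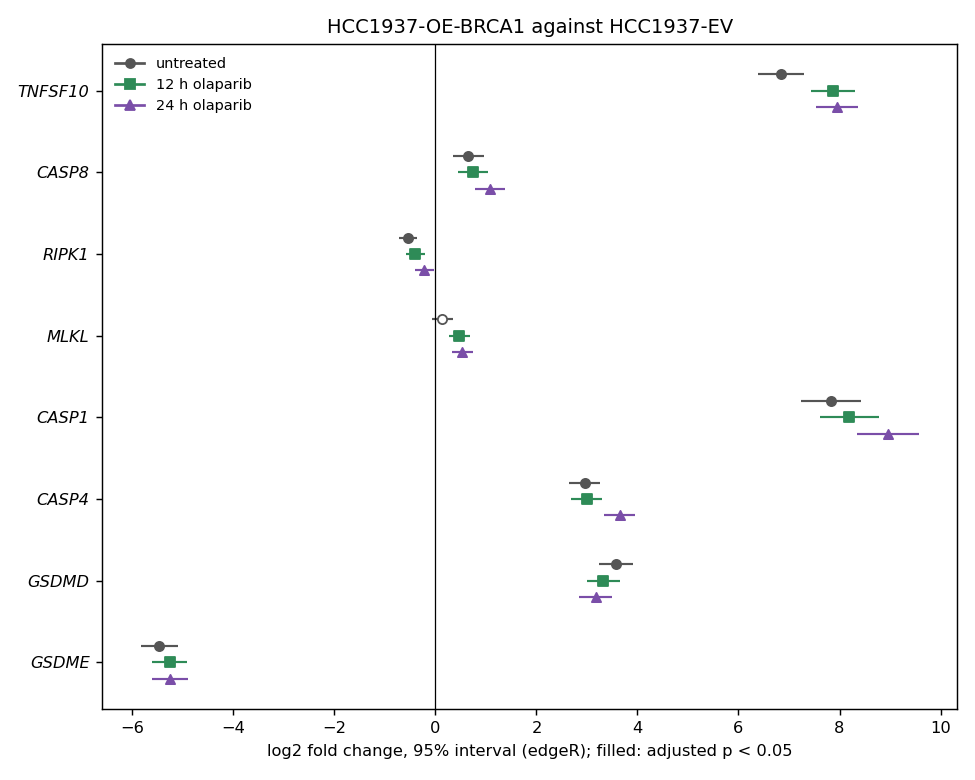
Difference between the cell lines for each gene on the log2 scale (HCC1937-OE-BRCA1 over HCC1937-EV), untreated (grey circles), at 12 h (green squares) and at 24 h with olaparib (purple triangles), with 95% intervals from edgeR; filled symbols passed an adjusted p of 0.05. TNFSF10 and CASP1 lay beyond 6, GSDME below -5, and MLKL untreated was the open symbol, at 0.14.

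The response to olaparib was compared within each line, where 12 h and 24 h share the untreated libraries. In HCC1937-EV none of the 8 genes was called at 12 h by edgeR, beside 0.0436% of all genes; 1 of them had an unadjusted p under 0.05, and DESeq2's Wald test called 0. At 24 h 1 was called, GSDMD, beside 13.7% of all genes. In HCC1937-OE-BRCA1 1 was called at 12 h, TNFSF10, beside 2.31% of all genes. At 24 h 4 were called, TNFSF10, CASP1, CASP4 and RIPK1, all of them higher, beside 8.26% of all genes called and 4.71% called higher. The fitted change of all 8 was above 0 with a median of 0.34 against 0.02 over all genes. The genes were chosen with earlier results of these data known, so these counts and this median are no result about the 8 as a set. Except for TNFSF10, the 24 h calls in HCC1937-OE-BRCA1 rested on few libraries. That of CASP1 was lost without untreated replicate 3 or without any of the 3 libraries at 24 h (0.44 to 0.56), that of CASP4 without replicate 2 or 3 of either time (0.45 to 0.48), and that of RIPK1 without untreated replicate 2 or 3 or any library at 24 h (0.29 to 0.35). RIPK1 also lost it with no filter on low counts (0.28), and with the compared conditions fitted alone RIPK1 (0.31) and CASP4 (0.48) did. In number, 1 of the 8 was called without untreated replicate 3 or 24 h replicate 2 or 3, 2 without untreated replicate 2 or 24 h replicate 1, and 5 without untreated replicate 1.

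The responses of the lines were also set against each other in 1 model. At 12 h none of the 8 differed by edgeR, beside 0.518% of all genes, with 2 at an unadjusted p under 0.05 and 0 by DESeq2's Wald test. At 24 h 1 differed, CASP4, beside 19.4% of all genes. Of the 8 fitted differences 7 were above 0, GSDMD being the exception at -0.41 (adjusted p = 0.183 by edgeR). Given how the genes were chosen, the number above 0 is no result about the 8 as a set. With the offset for GC content and length the difference of GSDMD turned to 0.21 and was not called (adjusted p = 0.244 by edgeR). RIPK1, at 0.33 and not called (adjusted p = 0.0668 by edgeR), was called with the GC offset that ended the call of CASP4 (0.36, adjusted p = 0.0166 by edgeR), by DESeq2's Wald test (0.32) and with at least 10 counts in every library (0.33). The number called was 0 without HCC1937-EV untreated replicate 3, HCC1937-OE-BRCA1 untreated replicate 2 or HCC1937-OE-BRCA1 24 h replicate 3. It was 2 without HCC1937-EV 24 h replicate 3 or any one HCC1937-EV 12 h library, and 5 without untreated HCC1937-OE-BRCA1 replicate 1.

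**Figure D3:**
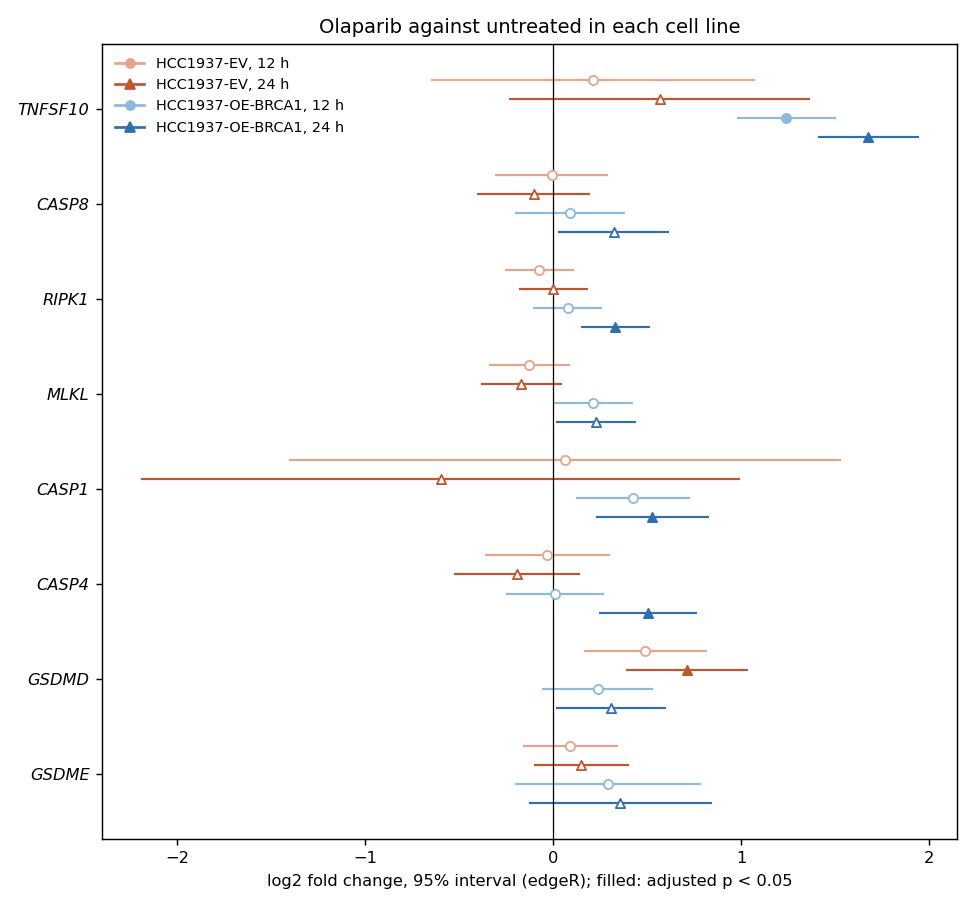
Log2 fold change against untreated for each gene at 12 h (circles, pale) and 24 h (triangles, dark) in HCC1937-EV (orange) and HCC1937-OE-BRCA1 (blue), with 95% intervals from edgeR; filled symbols passed an adjusted p of 0.05. The filled symbols are TNFSF10 at 12 h and 24 h and RIPK1, CASP1 and CASP4 at 24 h in HCC1937-OE-BRCA1, and GSDMD at 24 h in HCC1937-EV, and the widest intervals are those of CASP1 in HCC1937-EV, which rest on 16 counts in 9 libraries.

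Levels of different genes were compared per kilobase of exon. In untreated HCC1937-EV, RIPK1 was the highest at 14.9 ± 0.305 CPM per kb (SD, n = 3), followed by MLKL at 6.87 ± 0.103, GSDME at 5.62 ± 0.105, CASP8 at 3.89 ± 0.194 and GSDMD at 3.16 ± 0.327, while CASP4 was at 0.673 ± 0.0536, TNFSF10 at 0.107 ± 0.0182 and CASP1 at 0.0335 ± 0.0169. RIPK1 and MLKL thus had the highest values of the 8, and the ligand and both inflammatory caspases the lowest. In untreated HCC1937-OE-BRCA1 the order was GSDMD at 37.8 ± 7.24, TNFSF10 at 12.5 ± 2.07, RIPK1 at 10.2 ± 0.507, CASP1 at 8.10 ± 0.882, MLKL at 7.55 ± 0.221, CASP8 at 6.12 ± 0.882, CASP4 at 5.22 ± 0.559 and GSDME at 0.127 ± 0.0334, where CASP1 and MLKL differed by less than the SD of CASP1. After 24 h TNFSF10 stood at 39.9 ± 1.62 CPM per kb beside GSDMD at 46.8 ± 5.57.

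Within one line, the genes whose log2 CPM followed a member most closely over its 9 libraries were named by the highest Pearson correlation, as a description. For TNFSF10 in HCC1937-OE-BRCA1 they were HERC5 (r = 0.999), TDRD7 (0.997) and HERC6 (0.994), for CASP1 RARRES1 (0.992), CTSC (0.981) and NT5C3A (0.973), and for CASP4 RECQL (0.985), IL7R (0.984) and LMBRD1 (0.980). MLKL ran with CYLD (0.968) in that line and with MT-CO2 and MT-CO3 (both 0.984) in HCC1937-EV, where GSDMD ran with SLC2A11 (0.994). The 9 libraries share their conditions and their trend with GC content, and the genes were the best of 13914 in HCC1937-OE-BRCA1 and of 12807 in HCC1937-EV, so a high value is found for any member.

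The other genes of these pathways were read from 5 lists. Of the death receptor and apical caspase genes, 13 of 16 were tested. TRAIL binds the receptors TNFRSF10A and TNFRSF10B, which stood lower in HCC1937-OE-BRCA1 than in HCC1937-EV before treatment. TNFRSF10B was at 97.9, 112 and 108 CPM in HCC1937-EV and 40.5, 35.8 and 41.6 CPM in HCC1937-OE-BRCA1, without overlap, a log2 difference of -1.43 (SE 0.09, adjusted p = 1.58e-11 by edgeR's quasi-likelihood test (Benjamini-Hochberg adjusted)), and its 24 h responses were 0.03 and 0.19, neither called. TNFRSF11B, a soluble receptor that binds TRAIL, had no count in HCC1937-EV and 11.4 to 14.6 CPM in untreated HCC1937-OE-BRCA1, at least 207-fold higher against a limit of 3 counts over the group. CFLAR, the inhibitor of CASP8 activation, was at 25.4, 22.1 and 23.6 CPM in untreated HCC1937-EV and 134, 122 and 137 CPM in untreated HCC1937-OE-BRCA1. CASP10, the close relative of CASP8, was at 2.03, 2.28 and 2.90 CPM in untreated HCC1937-OE-BRCA1 and 5.71, 6.94 and 5.09 CPM at 24 h, a rise of 1.30 (SE 0.23, adjusted p = 0.00103 by edgeR). In HCC1937-EV it was higher, at 6.78 to 8.94 CPM untreated and 8.03 to 9.79 CPM at 24 h. The untreated log2 difference between the lines was -1.67 (SE 0.22, adjusted p = 1.03e-06 by edgeR). Before treatment 8 of the 13 were higher and 4 lower in HCC1937-OE-BRCA1, beside 39.4% and 33.3% of all genes. TRADD, another adaptor, had a mean of 42.8 CPM there and 11.9 CPM in HCC1937-EV. FADD, the adaptor between receptor and caspase, averaged 28.1 CPM in HCC1937-OE-BRCA1 and 8.27 CPM in HCC1937-EV untreated, and 21.6 and 15.8 CPM at 24 h. It rose at 24 h in HCC1937-EV by 0.93 (SE 0.22, adjusted p = 0.0118 by edgeR). This value has no offset for GC content. In the 12 h libraries of that line FADD was at 9.54, 14.6 and 17.7 CPM, where the correlations with GC content were -0.584, -0.208 and 0.640. In all, 5 of the 13 rose and 0 fell at 24 h in HCC1937-EV, and 1 rose and 1 fell in HCC1937-OE-BRCA1, with medians of 0.16 and -0.05. Of all genes tested, 8.62% rose and 5.12% fell at 24 h in HCC1937-EV, and 4.71% rose and 3.55% fell in HCC1937-OE-BRCA1, and the counts of the lists below stand against the same shares. TNFRSF25, another death receptor, had the largest rise in HCC1937-EV at 1.02, and TRAF2, an adaptor of these receptors, was the gene that fell in HCC1937-OE-BRCA1, by 0.47 on the log2 scale.

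Of the 23 inflammasome and pyroptosis genes, 13 were tested, and 8 were higher and 3 lower in untreated HCC1937-OE-BRCA1, beside 39.4% higher and 33.3% lower of all genes. With at least 10 counts in every library 7 were tested, of which 5 were higher and 2 lower, beside 4418 higher and 4356 lower of all 12035 genes. That filter leaves out PYCARD and GSDMC, which entered the 13 through their counts in HCC1937-OE-BRCA1. PYCARD, the adaptor that joins sensors to CASP1, had no count in untreated HCC1937-EV and 12.3, 21.7 and 16.6 CPM in untreated HCC1937-OE-BRCA1, at least 272-fold higher against the same limit of 3 counts. GSDMC, another pore protein, went from no count to 15.0, 11.6 and 11.7 CPM, at least 207-fold. Among the 3 lower genes were NLRC4, a sensor, by -2.35 (SE 0.53, adjusted p = 0.000501 by edgeR) and DPP8 by -0.87 (SE 0.15, adjusted p = 2.33e-05 by edgeR). NLRP1 and AIM2, other sensors, were at most 0.543 and 0.369 CPM in any library. At 24 h 3 of the 13 rose in HCC1937-OE-BRCA1 and 0 fell, beside 4.71% and 3.55% of all genes. IFI16, a sensor of DNA, was at 113, 79.4 and 68.9 CPM untreated and 190, 196 and 198 CPM at 24 h, a rise of 1.16 (SE 0.15, adjusted p = 2.62e-05 by edgeR's quasi-likelihood test (Benjamini-Hochberg adjusted)), while in HCC1937-EV it fell from 30.9, 28.1 and 28.1 CPM to 17.8, 17.6 and 15.3 CPM (-0.78, SE 0.16, adjusted p = 0.00521 by edgeR). IL1A rose by 1.82 (SE 0.37, adjusted p = 0.00401 by edgeR) from 35 to 126 summed counts, and GSDMB by 0.83. Of the cytokines that CASP1 matures, IL18 was at 33.4 to 39.6 CPM in HCC1937-OE-BRCA1 at 24 h and 23.6 to 37.6 CPM untreated, which overlap, and IL1B stayed at or below 2.39 CPM.

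Of the necroptosis and RIPK1 complex genes, 20 of 21 were tested. At 24 h 4 rose and 2 fell in HCC1937-OE-BRCA1, with a list median of 0.07, beside 8.26% of all genes called, and 2 rose and 2 fell in HCC1937-EV, beside 13.7%. Those in HCC1937-EV were RBCK1 (0.43), TNFAIP3 (0.43), TAB2 (-0.54) and CYLD. ZBP1, a sensor of left-handed nucleic acid upstream of MLKL, in HCC1937-OE-BRCA1 was at 0.308, 0.924 and 1.26 CPM untreated and 4.67, 4.36 and 3.86 CPM at 24 h, without overlap (2.36, SE 0.38, adjusted p = 0.00083 by edgeR's quasi-likelihood test (Benjamini-Hochberg adjusted)), and had 2 counts in all 9 libraries of HCC1937-EV. TLR3, a receptor for double-stranded RNA, was at 19.2, 13.7 and 12.2 CPM untreated and 35.2, 33.2 and 41.3 CPM at 24 h (1.28, SE 0.19, adjusted p = 0.000186 by edgeR). CYLD, which trims ubiquitin from RIPK1, rose by 0.50 in HCC1937-OE-BRCA1 and fell by 0.37 in HCC1937-EV, and these responses differed by 0.87 (SE 0.17, adjusted p = 0.00232 by edgeR). AURKA and PGAM5 were the 2 that fell in HCC1937-OE-BRCA1, by 0.57 and 0.55 on the log2 scale.

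Among 14 tested genes of the BCL2 family, 4 rose and 1 fell at 24 h in HCC1937-OE-BRCA1, and 4 rose and 0 fell in HCC1937-EV, beside 8.26% and 13.7% of all genes called. PMAIP1, BMF, BCL2L11 and MCL1 rose in the first line, where PMAIP1 went from 30.0, 25.3 and 23.8 CPM to 42.3, 47.0 and 44.9 CPM (0.76, SE 0.11, adjusted p = 0.000115 by edgeR's quasi-likelihood test (Benjamini-Hochberg adjusted)), and BOK fell. BBC3, BAX, BAK1 and BOK rose in the second, where BBC3 went from 8.88, 11.4 and 10.1 CPM to 18.7, 18.5 and 21.0 CPM (0.94, SE 0.19, adjusted p = 0.00544 by edgeR). With the offset for GC content, 1 of the 14 was called in HCC1937-EV in place of 4. Of 17 effector caspase and apoptosome genes, 0 rose and 3 fell in HCC1937-OE-BRCA1 and 5 rose and 2 fell in HCC1937-EV, beside the same shares. With the offset, which called 1521 genes higher and 1316 lower of all 18335 in place of 864 and 651, they were 3 and 3 in HCC1937-OE-BRCA1. Without the offset, the largest rises in HCC1937-EV were ENDOG (1.31) and HTRA2 (0.55) and the falls BIRC3 (-0.87) and CASP2 (-0.45). BIRC5, an inhibitor of apoptosis tied to dividing cells, fell by 0.64 in HCC1937-OE-BRCA1 (SE 0.10, adjusted p = 0.000445 by edgeR) and rose by 0.41 in HCC1937-EV.

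For the 24 h responses, the counts over these lists moved by more than 1.5 times when single libraries were left out, apart from the inflammasome genes in HCC1937-OE-BRCA1. At 24 h in HCC1937-EV they were 1 to 5 of 13 for the death receptor list, 1 to 8 of 17 for the effector caspases, 2 to 6 of 14 for the BCL2 family, 0 to 7 of 20 for the necroptosis genes and 1 to 2 of 13 for the inflammasome genes. In HCC1937-OE-BRCA1 the same ranges were 1 to 3, 2 to 8, 1 to 7, 3 to 7 and 3 to 4. The number called of all genes tested also moved in these fits, from 462 to 3679 in HCC1937-EV and from 644 to 3329 in HCC1937-OE-BRCA1 at 24 h. The swing is thus no trait of these lists.

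**Figure D4:**
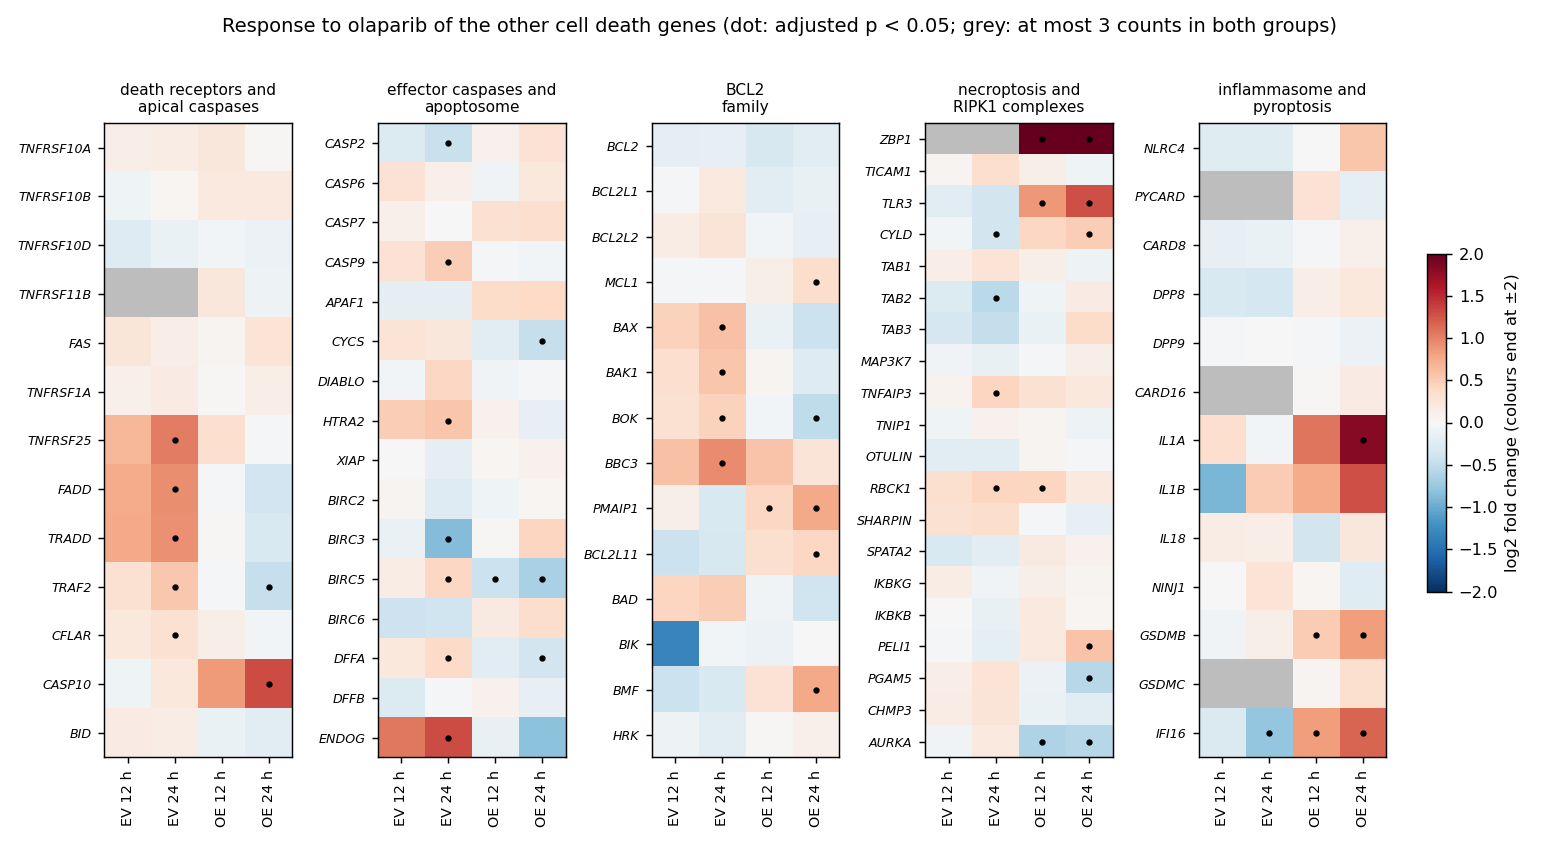
Log2 fold change against untreated of tested genes from the 5 lists (rows) at 12 h and 24 h in HCC1937-EV (EV) and HCC1937-OE-BRCA1 (OE), from blue (lower) to red (higher), with a dot where the adjusted p was under 0.05 and grey where both groups held at most 3 counts. ZBP1, TLR3, IFI16, IL1A and CASP10 were among the called rises in the OE columns at 24 h, and FADD, TRADD, BBC3 and ENDOG stood out at 24 h in EV. The values have no offset for GC content, and the libraries' trend with it changed along with the conditions.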

How the data were processed

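RNA was extracted with TRIzol and libraries were made with the NEBNext Ultra II kit. The authors deposited raw read counts per gene, whole numbers without normalization, in a joint table and in 18 tables of single libraries that held the same values. The submitters' processing notes name HISAT2, featureCounts and DESeq2 and the build GRCh38. Versions, annotation and strandedness are not given in the sources used here. Identifiers were matched without version to symbols (34966 of 35044) and to GENCODE release 29. Library totals had a median of 16077299 counts. Counts were tested with edgeR 4.0.16 in R 4.3.3, with TMM, filterByExpr, 1 mean per condition over 18 libraries and the quasi-likelihood test. A gene was called where its p, adjusted by Benjamini-Hochberg over 18335 genes, was under 0.05, with a biological coefficient of variation of 12.9%. With 3 against 3 libraries an exact permutation test cannot go below p = 0.1. On simulated counts for the 24 h response of HCC1937-OE-BRCA1, 79% of genes changed by 1 on the log2 scale and 22% of those changed by 0.5 were called. For the difference of 24 h responses these shares were 48% and 6%. The simulation gave each gene the same mean in both lines and all genes the same dispersion. It held no trend with GC content, so its shares need not hold for these libraries. CPM used normalized library sizes. Exact intervals and limits of 3 counts cover counting error alone.

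Alternatives were DESeq2 1.42.0 (Wald test, size factors), other filters on low counts, the compared conditions alone, the replicate number as a block, an offset for GC content and length, and each library left out. Same-numbered libraries of a line deviated together with correlations of -0.227 to 0.147, over 0.1 in 2 of 18 pairs, so numbers were not taken as pairs. Members and lists were chosen with earlier results of these data known. Names were drawn from the members, a set list of partners and, in each list and comparison, up to 2 called genes with the largest rise and fall at a mean of at least 1 CPM, and not all of these are printed. A few other list members that completed a count were named after their values were seen. A single gene that enters the list counts is not reported by name. Other assays of the study were not analysed here.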

Additional observations from a re-analysis of the deposited data

Results flagged for a closer look

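The 24 h responses of CASP4 differed between the cell lines, since the change in HCC1937-OE-BRCA1 exceeded that in HCC1937-EV by 0.70 on the log2 scale (SE 0.20, adjusted p = 0.0215 by edgeR's quasi-likelihood test of the interaction). Mean levels went from 37.9 to 53.7 CPM in the first line and from 4.89 to 4.27 CPM in the second. The libraries' trend with GC content changed along with the conditions, and with an offset for it the difference was 0.33 (adjusted p = 0.161 by edgeR). The call was also lost with no filter on low counts (0.64), and without HCC1937-EV untreated replicate 3, HCC1937-EV 24 h replicate 2, HCC1937-OE-BRCA1 untreated replicate 2 or HCC1937-OE-BRCA1 24 h replicate 3 (0.57 to 0.68). The cause was not tested.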

How the results depend on the processing

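The replicate number as a block changed no call of the 8 genes, and same-numbered libraries did not deviate together. It gave 812 higher and 566 lower genes in place of 864 and 651 for the 24 h response of HCC1937-OE-BRCA1, 1 called in place of 8 for HCC1937-EV at 12 h, and -5.95e-05 in place of 0.00 for RIPK1 in HCC1937-EV at 24 h. Over all members and settings, 741 called values kept direction and call and 30 lost the call. Of values not called, 1000 stayed so, 26 passed the threshold and 53 turned sign. The cause was not tested for any of them.

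Members called at 12 h in HCC1937-EV numbered 1 with no filter (GSDMD). At 12 h in HCC1937-OE-BRCA1 they were 2 by DESeq2's Wald test, 2 with the offset for GC content with or without the block, and 0 at 10 or more counts in every library, a filter that leaves out TNFSF10 and CASP1 and with them 2 of the 8. At 24 h in that line they were 2 under this filter and 2 with the compared conditions alone, and between the lines at 24 h 5 under this filter. For the difference of 24 h responses they were 3 by DESeq2, 3 under this filter, 2 with the compared conditions alone and 0 with no filter. Leaving out 1 library gave 0 to 1 member at 12 h and 1 to 1 at 24 h in HCC1937-EV, 1 to 1 and 1 to 5 in HCC1937-OE-BRCA1, 7 to 7, 8 to 8 and 7 to 8 between the lines, and 0 to 0 and 0 to 5 for the differences of responses. The untreated difference of BRCA1 passed the threshold at 0.27 with DESeq2's size factors, 0.27 by its Wald test, 0.29 at 10 or more counts and 0.39 with the GC offset with or without the block, and was 0.088 to 0.32 when single libraries were left out.

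With the GC offset, without and with the block, the change in HCC1937-EV was 0.084 and 0.086 for CASP4 and 0.10 and 0.095 for CASP8 at 12 h, and 0.0503 and 0.050 for CASP4 and 0.071 and 0.067 for CASP8 at 24 h. The difference of responses was -0.043 and -0.045 for CASP4 and -0.0091 and -0.00077 for CASP8 at 12 h, and 0.21 and 0.21 for GSDMD at 24 h. RIPK1 in HCC1937-EV at 24 h was -0.0041 with DESeq2's size factors, -0.0042 by its Wald test, -0.012 at 10 or more counts, -0.0021 with the compared conditions alone and -0.0499 and -0.0508 with the offset. CASP4 in HCC1937-OE-BRCA1 at 12 h was -0.0036 with no filter and -0.0062 with the compared conditions alone. Leaving out 1 library turned the sign of 4 genes in HCC1937-EV at 12 h, CASP1 (-0.85 to 0.45), CASP4 (-0.18 to 0.089), CASP8 (-0.12 to 0.15) and TNFSF10 (-0.054 to 0.34), of RIPK1 there at 24 h (-0.056 to 0.035), of CASP4 (-0.042 to 0.094) and CASP8 (-0.0027 to 0.20) in HCC1937-OE-BRCA1 at 12 h, and, for the difference of 12 h responses, of CASP1 (-0.029 to 1.27), CASP4 (-0.085 to 0.19), CASP8 (-0.066 to 0.21) and GSDME (-0.054 to 0.40).

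Genes called of all tested ranged over every setting from 0 to 818 (8 as reported) at 12 h and 462 to 5173 (2520) at 24 h in HCC1937-EV, from 257 to 1109 (423) and 644 to 3329 (1515) in HCC1937-OE-BRCA1, and from 37 to 772 (95) and 2062 to 5502 (3554) for the differences of responses. Between the lines they ranged from 8774 to 14669 (13330) untreated, 8737 to 14682 (13371) at 12 h and 8871 to 15089 (13555) at 24 h, where the lower ends belong to the filter of 10 counts, which tests 12035 genes. With the GC offset the higher and lower calls were 1315 and 1279 in place of 1581 and 939 in HCC1937-EV at 24 h, and 557 and 552 in place of 312 and 111 in HCC1937-OE-BRCA1 at 12 h, and 271 and 311 in place of 69 and 26 for the difference of 12 h responses. Depth limits what can be read for CASP1 and TNFSF10 in HCC1937-EV, with 16 and 66 counts over 9 libraries.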
